A study of Mus musculus with 26 samples.

Results

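The genes described here encode the secreted cues and receptors that guide growing vessels, together with markers of endothelial tip cells, in mouse embryos without TRAF7. They are the ligand and receptor pair *Apln* and *Aplnr*, the chemokine gene *Cxcl12* with its receptor genes *Cxcr4* and *Ackr3*, the tip cell marker *Esm1*, and the sphingosine 1-phosphate receptor gene *S1pr1*. The 7 genes were chosen by name from the 54532 genes of the deposited tables, with earlier results of these embryos known. All 7 passed the filter on low values in both tables.

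Whole embryos at E9.5 without the yolk sac were sequenced with 1 library per embryo, on a C57BL/6 background. The global knockout group (GLOko, n = 6) lacked the *Traf7* segment between *loxP* sites around exons 2 and 14 after recombination by *E2a-Cre*, which acts in the early embryo. Its controls were wild-type embryos (WT, n = 6). The endothelial knockout group (ECko, n = 7) was *Traf7* fl/fl;*Tie2-Cre*+, and its controls were the heterozygotes *Traf7* fl/+;*Tie2-Cre*+ (EChet, n = 7), which carry the same Cre and can lose 1 allele in the same cells. *Tie2-Cre* acts in endothelium and in hematopoietic cells, so cells of other lineages keep *Traf7* in ECko embryos. Values are FPKM, a level per gene length and per library size. The 2 tables were tested separately, and effects were not tested against each other between them.

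Tip cells lead each vascular sprout and follow attractants, while stalk cells behind them divide and form the tube. Apelin is made by tip cells and acts on its G protein-coupled receptor APLNR, found on venous endothelium. CXCL12 attracts cells through CXCR4, and ACKR3 takes CXCL12 up and clears it. S1PR1 senses a blood-borne lipid and steadies new vessels by restraining further sprouting.

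Reads in genes were 16913832 to 19491098 in GLOko embryos, 16662293 to 23877092 in WT, 18424569 to 25364652 in ECko and 17937321 to 24765617 in EChet embryos. *Traf7* itself was 2.41 ± 0.514 FPKM in GLOko and 18.3 ± 3.59 FPKM in WT embryos (mean ± SD, n = 6 each; log2 fold change -2.85, adjusted p = 3.98e-06 from limma). In ECko embryos it was 17.3 ± 2.21 FPKM, and in EChet embryos 20.5 ± 1.37 (SD, n = 7 each), and this difference did not pass (log2 fold change -0.24, adjusted p = 0.203 from limma). Some libraries stood apart. After thinning to equal reads, 16832 genes were detected in GLOko 1 and 18684 in ECko 3, the lowest values of their groups, against 19263 to 19721 in WT and 19777 to 20427 in EChet embryos. GLOko 6 (17012) and GLOko 2 (18621) were also below every WT embryo, and ECko 2 (19582) was below every EChet embryo. WT 3 was high in genes of the response to low oxygen. The summed level of 14 cardiomyocyte markers was 17.2 FPKM in GLOko 1, against 756 to 1377 FPKM in the other 5 GLOko embryos, and it was 50.7 FPKM in WT 4 while the remaining 5 WT embryos had 269.6 to 759 FPKM. It was 53.2 FPKM in ECko 3 and 78.1 FPKM in ECko 4, against 561 to 784 FPKM in the other 5 ECko and 582 to 722 FPKM in EChet embryos. The summed level of 12 yolk sac endoderm markers was 564 FPKM in GLOko 5 and 142 FPKM in GLOko 4, against 1.16 to 17.4 FPKM in the other 4 GLOko and 6.79 to 33.9 FPKM in WT embryos.

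Promoters of 5 of the 7 genes were found in the RefSeq table (GRCm38.p6), and those of *Aplnr* and *S1pr1* were not. The promoters of *Esm1* and *Apln* are shown because these 2 genes differed most from controls in both comparisons by p. Each runs from 250 bases before the start site to 50 after it, 5′ to 3′ on the strand of the gene, at chr13:113209409-113209708 (plus strand) for *Esm1* and chrX:48034804-48035103 (minus strand) for *Apln*. Capitals mark the core of the hypoxia response element, searched as ACGTG or GCGTG on both strands.
Esm1: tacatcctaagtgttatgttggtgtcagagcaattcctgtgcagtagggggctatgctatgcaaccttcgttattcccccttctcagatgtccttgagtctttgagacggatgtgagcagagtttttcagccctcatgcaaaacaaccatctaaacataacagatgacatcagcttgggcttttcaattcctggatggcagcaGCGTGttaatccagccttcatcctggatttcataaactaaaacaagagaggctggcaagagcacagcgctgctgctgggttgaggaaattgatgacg
Apln: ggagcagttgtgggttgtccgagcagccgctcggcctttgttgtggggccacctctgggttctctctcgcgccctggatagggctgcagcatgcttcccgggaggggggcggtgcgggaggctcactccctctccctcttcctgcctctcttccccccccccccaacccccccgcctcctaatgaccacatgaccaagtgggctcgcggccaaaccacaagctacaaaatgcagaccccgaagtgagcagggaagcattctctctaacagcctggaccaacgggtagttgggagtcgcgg
The *Esm1* promoter held 1 match, GCGTG beginning at position -47 from the start site, and the *Apln* promoter held none. Of the other members, *Cxcr4* and *Ackr3* had 1 match each and *Cxcl12* had none. Of 32851 mouse promoters of the same length, 43.8% held at least 1 match. The box CACCC, bound by Krüppel-like factors and searched on both strands, was absent from the *Esm1*, *Apln* and *Ackr3* windows and present in 57.5% of all promoters. A match is a description of the sequence and not of binding.

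In GLOko embryos, 2 of the 7 genes rose, *Esm1* and *Apln*, and none passed the test as lower. Of all 17573 genes tested, 10.4% were called changed in this comparison, 5.42% higher and 5.01% lower, by limma at an adjusted p of 0.05 or less. The median log2 fold change of the 7 genes was 0.43, against 0.01 over all genes. With voom on recovered reads 2 were called higher and 1, *Cxcl12*, lower. The share of all genes called depends on single embryos, and leaving out 1 embryo at a time gave 731 to 2491 changed genes in place of 1833.

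**Figure D1:**
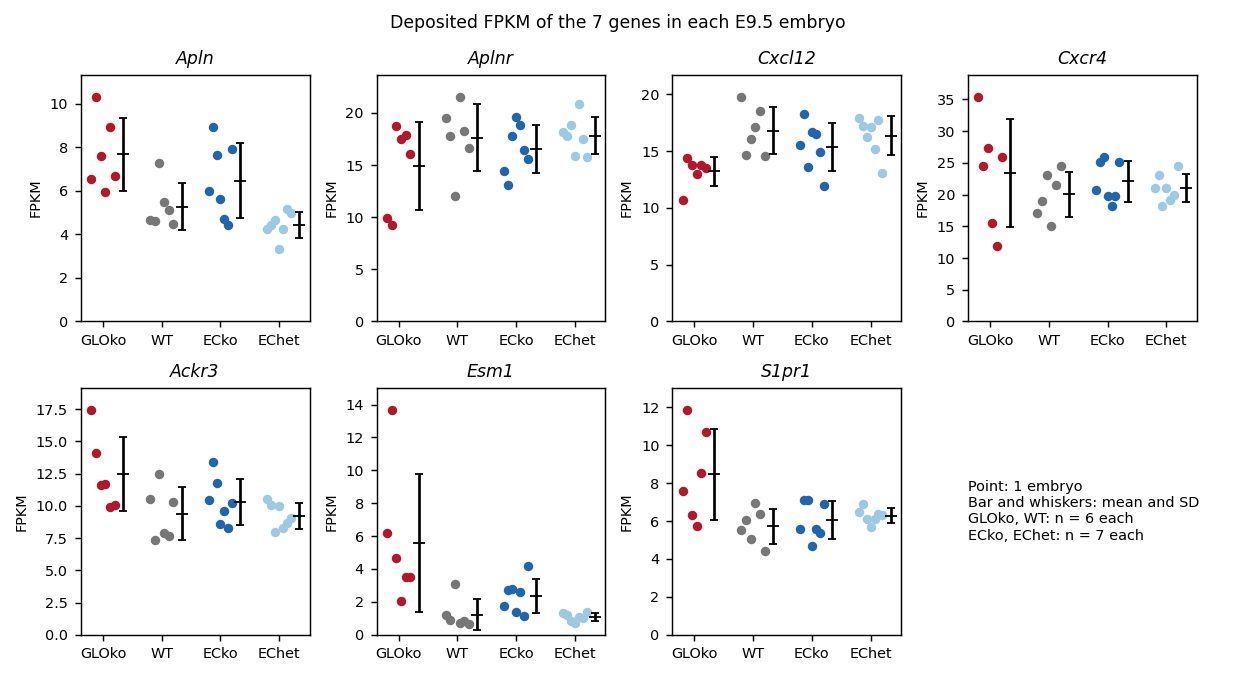
FPKM (vertical axes, from 0) of each of the 7 genes in every embryo (points) of the GLOko, WT, ECko and EChet groups, with the mean and SD beside them. *Esm1* reached 13.6 FPKM in GLOko 2 and stayed between 0.651 and 3.08 in WT embryos, while *Cxcr4* ranged from 11.9 to 35.4 FPKM in GLOko embryos around a similar mean.

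*Esm1* (ENSMUSG00000042379; chromosome 13 of mm10, 113209659 to 113218098) encodes endocan, a secreted proteoglycan typical of tip cells. Its transcript has 3 exons. GLOko 1 to GLOko 6 had 6.19, 13.6, 4.65, 2.02, 3.53 and 3.49 FPKM, and WT 1 to WT 6 had 1.19, 0.884, 3.08, 0.739, 0.818 and 0.651 FPKM. GLOko 2 was far above the rest, and GLOko 4 lay below WT 3, so that 5 of 6 GLOko embryos exceeded every WT embryo. The log2 fold change was 2.06 (standard error 0.44, 95% interval 1.12 to 3.00, adjusted p = 0.0148 from limma; two-sided exact permutation test, unadjusted p = 0.00433). A log2 fold change this high or higher was found in 0.211% of tested genes. The reads behind these values were few, 23 to 542 per embryo. The call held when any 1 embryo was left out (adjusted p of 0.00716 to 0.0395), with a log2 fold change of 1.75 without GLOko 2 and 2.35 without WT 3. It was lost with detected genes as a covariate (log2 fold change 1.92, adjusted p = 0.0589) and without GLOko 1 and WT 4 together, both low in cardiomyocyte markers (1.89, adjusted p = 0.0621). All of *Esm1* lies within the span of *Gzmk*, a protease gene on the opposite strand. The sources used here do not say whether strand was used in counting. The overlap is of whole gene spans with introns, and exons of the 2 genes were not compared. Whether any reads are shared was therefore not tested. *Gzmk* was listed at 0 to 1.03 FPKM in these 12 embryos.

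*Apln* (ENSMUSG00000037010), the apelin gene, lies on the minus strand of chromosome X of mm10 from 48025146 to 48034853 and has 3 exons. It was 6.53, 10.3, 7.61, 5.93, 8.94 and 6.69 FPKM in GLOko 1 to GLOko 6, and 4.64, 4.62, 7.29, 5.49, 5.11 and 4.47 FPKM in WT 1 to WT 6. Each GLOko embryo exceeded the WT mean, and 3 of 6 exceeded WT 3, the highest WT embryo. Its log2 fold change was 0.55 (standard error 0.16, 95% interval 0.20 to 0.89, adjusted p = 0.0448 from limma; two-sided exact permutation test, unadjusted p = 0.0130). This call stood at the edge of the threshold. Leaving out GLOko 3, GLOko 5, GLOko 6, WT 1, WT 2, WT 4, WT 5 or WT 6 each ended it, with adjusted p of 0.0505 to 0.0972 and log2 fold changes of 0.50 to 0.58. Both groups held 2 female and 4 male embryos by sex-linked transcripts, and with sex as a covariate the adjusted p was 0.0450.

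*Aplnr* (ENSMUSG00000044338; chromosome 2 of mm10, 85136225 to 85139923), the receptor of apelin, did not pass. GLOko 1 to GLOko 6 had 9.90, 9.21, 18.7, 17.5, 17.9 and 16.1 FPKM, and WT 1 to WT 6 had 19.6, 17.8, 12.1, 21.5, 18.3 and 16.6 FPKM. Low values stood in GLOko 1, GLOko 2 and WT 3, and the other 9 embryos lay between 16.1 and 21.5 FPKM. The log2 fold change was -0.26 (95% interval -0.67 to 0.16, adjusted p = 0.412 from limma). Without GLOko 1, GLOko 2 and GLOko 6, the embryos with the fewest detected genes, it was 0.07. The ratio of *Apln* to *Aplnr* FPKM had a median of 0.458 in GLOko and 0.264 in WT embryos (p = 0.0346 by an exact two-sided permutation test and 0.104 when adjusted for the 6 ratios compared), and it failed the correction.

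*Cxcl12* (ENSMUSG00000061353; chromosome 6 of mm10, 117168535 to 117181367) encodes the chemokine SDF-1, which mesenchyme secretes. Its values were 10.7, 14.4, 13.8, 13.0, 13.8 and 13.6 FPKM in GLOko 1 to GLOko 6, and 19.8, 14.7, 16.1, 17.1, 18.6 and 14.6 FPKM in WT 1 to WT 6. All 6 GLOko embryos were below every WT embryo, by a narrow gap between GLOko 2 and WT 6. Groups that do not overlap were found for 8.71% of all genes tested. After scaling, 5 of 6 GLOko embryos were below every WT embryo. Its log2 fold change was -0.32 (standard error 0.10, 95% interval -0.54 to -0.10) and missed the threshold (adjusted p = 0.0620 from limma; two-sided exact permutation test, unadjusted p = 0.00649). It passed in 6 of 27 other fits, among them voom on recovered reads (adjusted p = 0.0490), the fit without GLOko 2 (0.0360) and the fit with the endothelial marker mean as a covariate (0.0160). The table holds 1 value per gene, so the 4 annotated transcripts were not separated.

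Neither receptor of CXCL12 passed the test. *Ackr3* (ENSMUSG00000044337; chromosome 1 of mm10, 90203980 to 90216751), the scavenging receptor, was 17.4, 14.1, 11.6, 11.7, 9.87 and 10.1 FPKM in GLOko 1 to GLOko 6, and 10.5, 7.36, 12.5, 7.93, 7.64 and 10.3 FPKM in WT 1 to WT 6. GLOko 1 and GLOko 2 exceeded every WT embryo, and the other 4 overlapped with WT. Its log2 fold change was 0.43 (95% interval 0.06 to 0.79, adjusted p = 0.116 from limma). *Cxcr4* (ENSMUSG00000045382; chromosome 1 of mm10, 128588199 to 128592293), the signaling receptor, was 35.4, 24.5, 27.4, 15.6, 11.9 and 25.9 FPKM in GLOko 1 to GLOko 6, and 17.2, 19.0, 23.0, 15.1, 21.4 and 24.5 FPKM in WT 1 to WT 6. In 4 GLOko embryos it was above every WT embryo, and in GLOko 5 it was below every one. Its log2 fold change was 0.18 (95% interval -0.33 to 0.68, adjusted p = 0.660 from limma). The sign turned in 4 of 27 other fits, to -0.18 without GLOko 1, GLOko 2 and GLOko 6. The coefficient of variation of *Cxcr4* was 36.3% in GLOko and 17.9% in WT embryos.

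*S1pr1* (ENSMUSG00000045092; chromosome 3 of mm10, 115710433 to 115715072) was 7.58, 11.8, 6.29, 5.76, 8.56 and 10.7 FPKM in GLOko 1 to GLOko 6, and 5.54, 6.03, 5.04, 6.94, 6.37 and 4.41 FPKM in WT 1 to WT 6. GLOko 1, GLOko 2, GLOko 5 and GLOko 6 were above every WT embryo, and GLOko 3 and GLOko 4 lay within the WT range. The log2 fold change was 0.54 (standard error 0.18, 95% interval 0.15 to 0.94), and the adjusted p from limma, 0.0705, missed the threshold. Without GLOko 4 it passed (0.65, adjusted p = 0.0292). Without GLOko 1, GLOko 2 and GLOko 6 it was 0.28 (adjusted p = 0.276).

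In ECko embryos none of the 7 genes was called by limma or by voom, and 2, *Esm1* and *Apln*, had an unadjusted p under 0.05. Of all 17514 genes tested, 0.0971% were called by limma and 14.5% had an unadjusted p under 0.05. Counts this low moved with single embryos, from 3 called genes without ECko 3 to 51 without ECko 6, in place of 17. The groups overlapped for all 7 members, and they did not overlap for 0.508% of all genes.

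**Figure D2:**
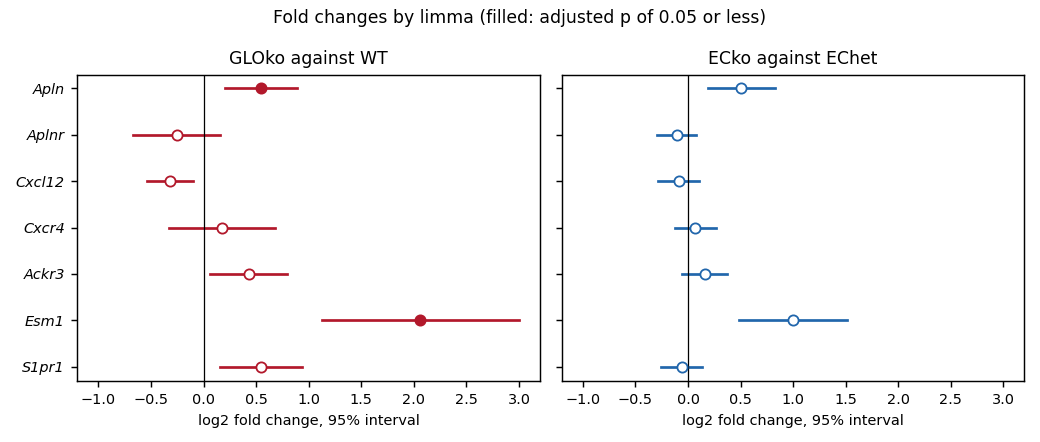
Log2 fold change by limma (horizontal axis, point with 95% interval) of the 7 genes in GLOko against WT embryos (left) and in ECko against EChet embryos (right), filled where the adjusted p was 0.05 or less. *Esm1* had the highest value in both panels, 2.06 and 1.00, and only *Esm1* and *Apln* in GLOko embryos are filled.

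*Esm1* was 1.77, 2.72, 2.81, 1.41, 2.58, 1.14 and 4.20 FPKM in ECko 1 to ECko 7, and 0.687 to 1.36 FPKM with a median of 1.08 in EChet embryos. All ECko embryos but ECko 6 exceeded every EChet embryo. The log2 fold change was 1.00 (standard error 0.24, 95% interval 0.49 to 1.51, adjusted p = 0.146 from limma; two-sided exact permutation test, unadjusted p = 0.00350), of rank 96 by p among all tested genes. Without ECko 6 it passed (1.15, adjusted p = 0.0465). *Gzmk*, on the opposite strand, was listed at 0 to 0.460 FPKM in these 14 embryos.

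*Apln* was 5.99, 8.92, 7.62, 5.63, 4.70, 4.42 and 7.90 FPKM in ECko 1 to ECko 7, and 3.32 to 5.15 FPKM with a median of 4.41 in EChet embryos. ECko 5 and ECko 6 lay within the EChet range and the other 5 above it. This gave a log2 difference of 0.51 (standard error 0.15, 95% interval 0.19 to 0.83, adjusted p = 0.194 from limma; two-sided exact permutation test, unadjusted p = 0.0105), beside 0.55 in GLOko embryos. *Apln* is X-linked, and the ECko group held 4 female and 3 male embryos while the EChet group held 1 female and 6 male embryos. With sex as a covariate the log2 fold change was 0.45 (adjusted p = 0.509). The ratio of *Apln* to *Aplnr* had a median of 0.415 in ECko and 0.248 in EChet embryos (p = 0.0163 by the same exact test and 0.0979 when adjusted for the 6 ratios), and it failed the correction.

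None of the other 5 members had an unadjusted p under 0.05 in ECko embryos. *Ackr3* was 10.3 ± 1.78 FPKM in ECko and 9.21 ± 0.973 in EChet embryos (SD, n = 7 each), a log2 fold change of 0.16 (95% interval -0.06 to 0.37, adjusted p = 0.501 from limma). *Cxcr4* was 18.2 to 25.9 FPKM in ECko and 18.2 to 24.5 FPKM in EChet embryos, with a log2 fold change of 0.07 (-0.12 to 0.26). *Aplnr* was 16.5 ± 2.34 FPKM in ECko and 17.8 ± 1.76 in EChet embryos (-0.11, -0.29 to 0.08). For *Cxcl12* the values were 15.4 ± 2.09 FPKM in ECko and 16.4 ± 1.71 in EChet embryos (-0.09, -0.28 to 0.10). *S1pr1* was 6.05 ± 0.978 FPKM in ECko and 6.28 ± 0.386 in EChet embryos, with a log2 fold change of -0.06 (-0.26 to 0.14), and ranged more widely in ECko (4.69 to 7.13 FPKM) than in EChet embryos (5.66 to 6.91 FPKM). The adjusted p of these 4 genes was 0.600 to 0.808. All 4 intervals lay between -0.29 and 0.26 on the log2 scale.

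The group means of the 7 genes kept a similar order of level per gene length, and single embryos departed from it. In GLOko 2 *Esm1* (13.6 FPKM) exceeded *S1pr1* (11.8), *Apln* (10.3) and *Aplnr* (9.21). In GLOko 5 *Cxcr4* (11.9 FPKM) was below *Aplnr* (17.9). In the group means *Cxcr4* came first in the 4 groups, with the highest mean, 23.4 FPKM, in GLOko embryos, followed by *Aplnr*, *Cxcl12* and *Ackr3*, and *Esm1* came last, at 1.07 to 5.59 FPKM. *Cxcl12* exceeded *Ackr3* in all 7 ECko, all 7 EChet and all 6 WT embryos, and in 5 of 6 GLOko embryos. Neighbors at the top were not separated, since *Aplnr* exceeded *Cxcl12* in 4 of 6 GLOko, 3 of 6 WT, 5 of 7 ECko and 5 of 7 EChet embryos. *S1pr1* and *Apln* changed places, with *S1pr1* above *Apln* in 3 of 6 GLOko and 4 of 6 WT embryos, *Apln* above *S1pr1* in 5 of 7 ECko embryos, and *S1pr1* above *Apln* in all 7 EChet embryos.

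In GLOko embryos *Esm1* followed the order of genes of the response to low oxygen, and *Apln* did so in part. A list of 18 such genes was chosen with earlier results of these data known. It includes genes of glucose uptake, glycolysis and oxygen sensing, and no member of the present group. In GLOko embryos 18 of 18 rose by limma, led by *Pdk1* (log2 fold change 1.64), *Bnip3* (2.37) and *Slc2a1* (1.32). Over all genes tested, 5.42% were called higher in GLOko embryos. In ECko embryos 3 of 18 rose, *Higd1a* (0.72), *Pgk1* (0.69) and *Ldha* (0.50), while 17 of 18 had an unadjusted p under 0.05. Over all genes, limma called 0.0971% changed in ECko embryos, and 14.5% had an unadjusted p under 0.05. The summed level of the list was 2793 to 5132 FPKM in GLOko and 1455 to 2682 FPKM in WT embryos, and 1807 to 3308 FPKM in ECko and 1434 to 1887 FPKM in EChet embryos. The mean of the list over the WT mean, on the log2 scale, was 2.82 in GLOko 2, 1.94 in GLOko 1, 1.78 in GLOko 3, 1.43 in GLOko 5, 1.38 in GLOko 6 and 0.92 in GLOko 4, and *Esm1* FPKM had the same order in these 6 embryos. For *Esm1*, GLOko 5 and GLOko 6 were close (3.53 and 3.49 FPKM). *Apln* shared the order in part, with GLOko 2 highest and GLOko 4 lowest for both *Apln* and the list. GLOko 1, second by the list, was second lowest for *Apln* (6.53 FPKM). GLOko 5, the fourth by the list, was second highest for *Apln* (8.94 FPKM). Among WT embryos, WT 3 had the highest list mean (0.91, the others at -0.07 or below) and the highest *Esm1* and *Apln*. Among ECko embryos, the list mean was 1.60 to 1.79 in ECko 2, ECko 3 and ECko 7, which were also the 3 highest for *Apln* and for *Esm1*, and 0.05 in ECko 6, the lowest for both. Between these the order was not kept. ECko 5 (list mean 0.45) had more *Esm1* than ECko 1 (list mean 0.80), 2.58 against 1.77 FPKM. ECko 4 (list mean 0.10) had more *Apln* than ECko 5, 5.63 against 4.70 FPKM. ECko 2, ECko 3 and ECko 7 were the highest for *Cxcr4* and *S1pr1* as well, which did not pass in ECko embryos. The part of this list in the values of *Esm1* and *Apln* was not tested.

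**Figure D3:**
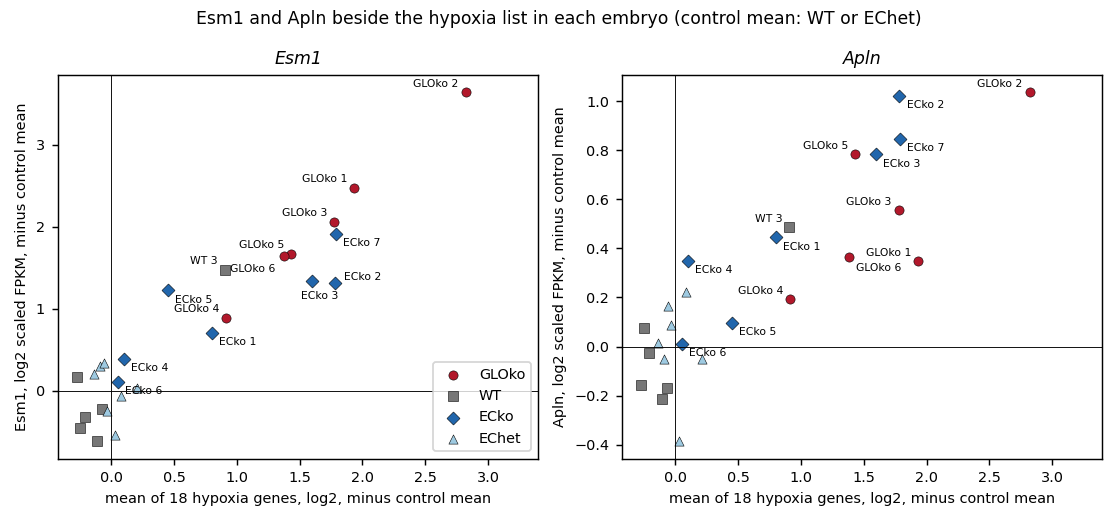
Log2 scaled FPKM of *Esm1* (left) and *Apln* (right) in each embryo against the mean of 18 hypoxia genes, both relative to the mean of the controls (WT or EChet). Points are embryos, and the GLOko, ECko and WT 3 embryos are named. GLOko 2, at 2.82 on the horizontal axis, is highest for *Esm1*, and WT 3, at 0.91, stands apart from the other 5 WT embryos.

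Markers of endothelium were present in all groups. Of 18 markers, 1 rose in GLOko embryos, the TGF-beta co-receptor gene *Eng* (log2 fold change 0.46, adjusted p = 0.0306 from limma). Over all genes tested, 5.42% were called higher in GLOko embryos, and this count is near that share. Of the 18, 13 had a log2 fold change above 0, with a median of 0.20. *Cldn5*, named after its values were seen, lay below 0 (-0.25, adjusted p = 0.155 from limma). In ECko embryos none was called by limma or voom (5 of 18 had an unadjusted p under 0.05), beside 0.0971% of all genes called by limma. *Cd93* (0.66, adjusted p = 0.0681) and *Pecam1* (0.74, adjusted p = 0.0710) did not pass in GLOko embryos. Summed marker levels were 127 to 235 FPKM in GLOko and 129 to 153 FPKM in WT embryos, and 138 to 162 FPKM in ECko and 129 to 152 FPKM in EChet embryos, with GLOko 2 highest, and no marker was listed at 0 throughout. With the mean of these markers as a covariate, the log2 fold change of *Esm1* was 1.79 (adjusted p = 0.0190) and that of *Apln* 0.41 (adjusted p = 0.0495) in GLOko embryos. In ECko embryos the same fit gave 0.76 (adjusted p = 0.789) and 0.37 (adjusted p = 0.798). In whole embryos, fewer cells of a type and less RNA per cell cannot be told apart.

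Some other genes of tip cells rose in GLOko embryos. Of 20 listed, 6 rose, 1 fell and 13 did not pass (limma), with a median log2 fold change of 0.53. Over all 17573 genes tested, 5.42% were called higher and 5.01% lower. The 6 that rose were led by *Igfbp3* (1.02), a binding protein of insulin-like growth factors, the vasodilator peptide gene *Adm* (3.11) and the laminin chain gene *Lamb1* (1.03). *Adm* was 15.1 ± 13.6 FPKM in GLOko and 1.47 ± 1.21 FPKM in WT embryos (mean ± SD of 6 each). Named after their values were seen, the VEGF receptor genes *Kdr* (0.76) and *Flt4* (0.67) rose, and *Fscn1*, an actin-bundling protein gene also used by neurons, fell (-0.39). *Kcne3*, a potassium channel subunit gene, rose too (1.89). Of the 20, 16 had a log2 fold change above 0. Among the 13 that did not pass, *Plaur* (-0.60), *Cd34* (-0.37) and *Ramp3* (-0.19) lay below 0, also named after their values were seen. In ECko embryos 0 of 20 were called by limma and by voom, and 8 had an unadjusted p under 0.05, with *Adm* (1.70, adjusted p = 0.203), *Kcne3* (1.23, adjusted p = 0.226) and *Ramp3* (0.46, adjusted p = 0.233) of smallest p.

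Among the signaling partners of the 7 genes, limma called *Gna13* and *Plpp1* alone, both in GLOko embryos. In that comparison 10.4% of all 17573 genes tested were called changed, and the partners were not tested against this share. Of 9 tested genes of the apelin axis, *Gna13*, a G protein alpha subunit gene, rose in GLOko embryos (log2 fold change 0.67, adjusted p = 0.0258 from limma) and none fell, and the median was -0.05. *Arrb1* (-0.31, adjusted p = 0.106) and *Gnai1* (0.41, adjusted p = 0.179) came next by p. None of the 9 was called in ECko embryos by limma or voom (0 at an unadjusted p under 0.05), where *Gnai2* (0.07), *Gnai1* (0.09) and *Arrb1* (-0.10) had the smallest p. Of other chemokine genes, 0 of 11 tested were called in GLOko embryos by limma, by voom or at an unadjusted p under 0.05. Those of smallest p were *Ccl2* (0.97), *Ccr7* (-0.73) and *Dpp4* (0.54), the protease that cleaves CXCL12, all under 1 FPKM on average. In ECko embryos 0 of 9 were called by limma and by voom and 2 had an unadjusted p under 0.05, *Mif* (0.24, adjusted p = 0.114), an alternative ligand of CXCR4, and *Ackr1* (-0.47, adjusted p = 0.246). *Ccr7* (0.38, adjusted p = 0.499) came next. Of 12 genes that make, export, degrade or sense sphingosine 1-phosphate, *Plpp1*, a lipid phosphatase gene, fell in GLOko embryos (-0.47, adjusted p = 0.0354 from limma), and none rose. By voom 0 of the 12 were called. *Sphk2* (-0.55, adjusted p = 0.103), a kinase that makes the lipid, and *Mfsd2b* (0.57, adjusted p = 0.341), which exports it from red cells, did not pass. In ECko embryos 0 of 12 were called by limma or voom (0 at an unadjusted p under 0.05), with *Mfsd2b* (0.28), *Sphk1* (0.23) and *Sgpp1* (-0.08) of smallest p.

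**Figure D4:**
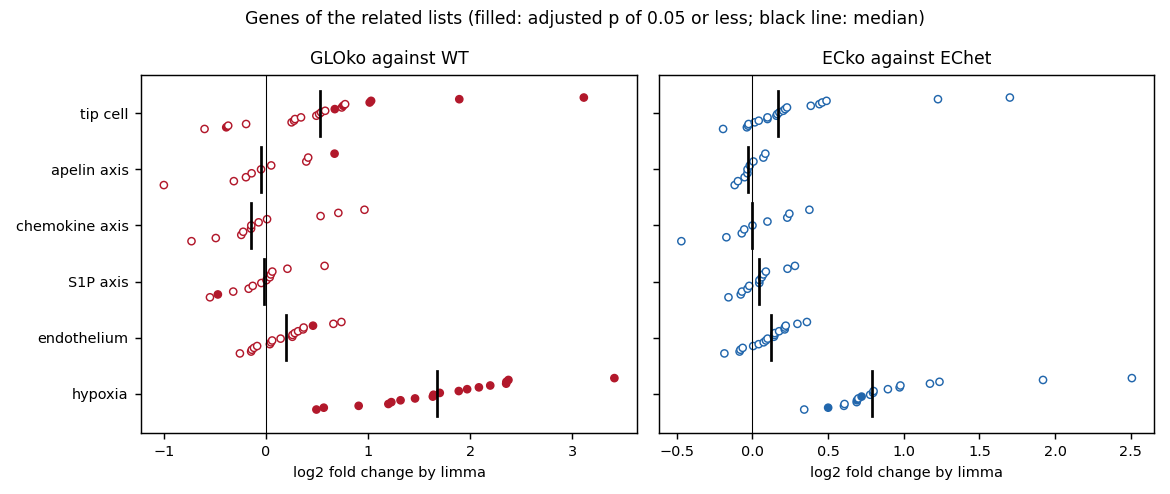
Log2 fold change by limma (horizontal axes, each with its own scale) of every tested gene (points) of 6 lists in GLOko against WT embryos (left) and ECko against EChet embryos (right), filled where the adjusted p was 0.05 or less, with the median of each list as a black line. The hypoxia list lies wholly above 0, with medians of 1.67 and 0.79, and the tip cell list has medians of 0.53 and 0.17.

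Genes that respond to blood flow fell in part. Of 10, 4 fell and 2 rose in GLOko embryos by limma. Over all genes tested, 5.42% were called higher and 5.01% lower in GLOko embryos, and 0.0971% were called changed in ECko embryos. The counts for these genes and for the cell type lists below were not tested against these shares. The 2 that rose, named after their values were seen, were the caveolin gene *Cav1* (1.66, adjusted p = 0.0461) and the endothelin gene *Edn1* (0.80, adjusted p = 0.0472), and voom called 4 lower and 0 higher. *Klf2*, a transcription factor gene induced by shear stress, fell by 3.90 on the log2 scale in GLOko and by 1.34 in ECko embryos, *Nppc* fell by 2.39 and *Gja4* by 1.21 in GLOko embryos. Mean levels in GLOko and WT embryos were 0.319 and 4.99 FPKM for *Klf2*, and 0.109 and 1.04 FPKM for *Nppc*. The GLOko levels are low beside the 0.1 added before taking logarithms, so the size of both changes depends on that constant. In ECko embryos *Klf2* alone was called, and *Aqp1* (-0.91, adjusted p = 0.0786) and *Nos3* (-0.34, adjusted p = 0.225) did not pass. Among markers of other cell types in GLOko embryos, 5 of 12 neural genes fell (led by *Nes*, -0.70, *Neurog1*, -1.21, and *Neurog2*, -1.10), and the summed neural level was 81.6 to 199.9 FPKM in GLOko and 179 to 272 FPKM in WT embryos. The blood progenitor genes *Kit* (1.05) and *Myb* (-0.85) were called, 1 up and 1 down of 10. Of 10 mesenchymal genes 1 was called, the receptor gene *Pdgfra*, which rose (0.47) against most of its list. In that list 3 of 10 had a log2 fold change above 0, and the median was -0.27. The segmentation gene *Lfng* fell (-0.59), the 1 of 10 called in its list, where 5 of 10 lay above 0. No marker of cardiomyocytes (14), yolk sac endoderm (12) or erythroid cells (9) was called by limma or voom, with 0, 1 and 0 at an unadjusted p under 0.05, while the summed levels of the first 2 lists differed widely among embryos, as given above. In ECko embryos none of these 7 lists held a called gene by limma or voom (0 to 2 genes per list at an unadjusted p under 0.05). The part of these cell types in the values of the 7 genes was not tested.

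The 3 genes most like each member were sought among 11836 genes by the smaller of the 2 Pearson r of log2 values centered on their groups, over the 12 embryos of one table and the 14 of the other. For *Apln* these were *Ddit4*, a hypoxia-induced inhibitor of mTOR that also stands in the hypoxia list (r = 0.86 and 0.84), *Siah2* (0.82 and 0.90) and *Cxxc5* (0.82 and 0.83). For *Esm1* they were *Rnf13* (0.87 and 0.85), *Nub1* (0.83 and 0.85) and *Tef* (0.83 and 0.83). *Cxcr4* was most like *Mettl9* (0.81 and 0.87), *Ahcyl1* (0.80 and 0.83) and *Cyp39a1* (0.83 and 0.80), and *Ackr3* most like *Kbtbd11* (0.83 and 0.84), *Crmp1* (0.83 and 0.78) and *Sept6* (0.77 and 0.79). *Aplnr* was followed by *Kif20a* (0.84 and 0.80), *Fbxl18* (0.79 and 0.81) and *Las1l* (0.87 and 0.76), *Cxcl12* by *Gypc* (0.80 and 0.85), *Dnmt3a* (0.84 and 0.77) and *Samd14* (0.76 and 0.77), and *S1pr1* by *Vdac1* (0.83 and 0.90), *Rgl3* (0.71 and 0.77) and *Rpl10* (0.71 and 0.78). These are the highest of many values over embryos that share libraries and scaling, and they are given as a description without a test. No member was among the 3 genes most like another member.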

How the data were processed

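The FPKM deposited by the authors, in 1 table for GLOko and WT and 1 for ECko and EChet embryos (26 libraries), were used. Per the labels, reads were aligned with STAR to mm10. The study's resource list also names HISAT2 and featureCounts, and which of them made the tables was not settled. Multiplied by gene length, 100% of the values of every library were whole multiples of 1 step (tolerance 0.01 of a step), and the read numbers follow from this. Pairs of libraries of a group gave a chi-square per gene of 5.28 to 157, so embryos differed beyond counting error.

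Each library was scaled by a median-of-ratios factor (from genes averaging 1 FPKM or more), and 0.1 was added. Genes averaging 0.1 FPKM or more were tested by limma 3.58.1 (R 4.3.3) on the log2 values, so that fold changes of low genes are understated. Trend and robust settings were used, p was two-sided with Benjamini-Hochberg adjustment over all genes of a table, and a gene is called at an adjusted p of 0.05 or less. Fold change, direction and p are GLOko over WT and ECko over EChet. Exact permutation tests went through all 924 or 3432 divisions of the embryos and are unadjusted. Python 3.11.15, numpy 2.4.6 and pandas 2.3.3 were used. The fit was also run on simulated data, with the same spread between embryos for all genes and both groups. GLOko embryos differed more from each other than WT embryos (chi-square per gene up to 157 and 31.6), so no conclusion is drawn from that run.

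Named genes are the 7 members, *Traf7*, the 3 genes of smallest p per list and comparison, and the 3 genes most like each member. The members and lists were chosen with earlier results of these data known. Gene names that had become dates were read by identifier from the GENCODE names. Labels do not give litters, and p measures the spread between these embryos. Alternatives were the constant added (0.01 and 1), the filter, scaling, limma's settings, sample weights, voom on recovered reads, covariates, a replicate block and leaving out embryos.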

Additional observations from a re-analysis of the deposited data

Results flagged for a closer look

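Of 28 combinations of gene and group, 4 held an embryo far from the rest of its group by Dixon's criterion, which chance alone meets in about 1 of 20 groups. *Esm1* was 13.6 FPKM in GLOko 2, against 2.02 to 6.19 FPKM in the other 5 GLOko embryos. WT 3 also stood out, with *Esm1* at 3.08 FPKM, while the other 5 WT embryos had 0.651 to 1.19 FPKM. *Apln* was 7.29 FPKM in this embryo, and the other 5 had 4.47 to 5.49 FPKM. *Cxcl12* was 10.7 FPKM in GLOko 1, against 13.0 to 14.4 FPKM in the other 5 GLOko embryos. Without WT 3, the log2 fold change in GLOko embryos was 2.35 for *Esm1* and 0.64 for *Apln*. Without GLOko 2, that of *Esm1* was 1.75, and without GLOko 1, that of *Cxcl12* was -0.26.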

How the results depend on the processing

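In GLOko embryos *Esm1* kept its direction in all 27 other fits (log2 fold change 1.46 to 2.35) and its call in 25, and *Apln* kept its direction in all 27 (0.41 to 0.64) and its call in 13. In ECko embryos the 7 genes kept their direction in all 28 other fits, and *Esm1* was called in 1. The number of changed genes in GLOko embryos, 1833, was 1208 without a filter, 2799 with sample weights, 458 with detected genes as a covariate and 542 without GLOko 1 and WT 4. With 1 embryo left out it was 731 to 2491, and it was lower by more than 1.5 times without WT 1, WT 2, WT 3, WT 4, WT 5 or WT 6. Of the 2 members called, 1 was left without a filter, without trend and robust settings, and without GLOko 1, GLOko 2 and GLOko 6. None (0) was left with detected genes as a covariate and without GLOko 1 and WT 4, and 1 to 3 were called with 1 embryo left out. *Cxcr4* turned to -0.090 with sample weights, -0.11 with detected genes as a covariate, -0.039 without GLOko 1 and WT 4, and -0.18 without GLOko 1, GLOko 2 and GLOko 6, a fit in which *Aplnr* turned to 0.075. The number of changed genes in ECko embryos, 17, was 5 without a filter, 1 without trend and robust settings, 31 with sample weights, 10 with voom, 8 with detected genes, 0 with the endothelial marker mean and 0 with sex as covariates, and 3 without ECko 3. With 1 embryo left out it was 3 to 51, and 0 to 1 members were called. The 1 member whose groups did not overlap, *Cxcl12* in GLOko embryos, became 0 after scaling, a count chosen after seeing the data. The cause of these changes was not tested, except that fits with fewer embryos have fewer values.

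Embryos of the same number did not deviate together (r of -0.05 to 0.09 in the GLOko table and -0.08 to 0.11 in the ECko table), and the labels tie a number to no litter. With a replicate block, 1010 genes and 1 member (*Esm1*) were called in GLOko embryos, and 0 genes in ECko embryos. Not every embryo correlated best with its own number. *Esm1* had the fewest reads in an embryo among the 7 genes, 23 to 542 in GLOko and WT embryos and 30 to 210 in ECko and EChet embryos.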
